A study of Mus musculus with 3 samples.

Results

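The 36 genes described here encode enzymes of fuel oxidation, mostly mitochondrial: 19 of fatty acid oxidation and 17 of pyruvate entry and the tricarboxylic acid (TCA) cycle. The cytosolic enzymes Idh1 and Mdh1 are counted with the TCA genes. All 36 were taken by gene name from a list that was chosen with earlier results of these data known. Every peak whose nearest transcription start site (TSS) belonged to one of these genes was kept. This gave 24 of 16937 Foxp4 peaks and 48 of 17564 H3K27ac peaks. The peaks come from chromatin immunoprecipitation with sequencing (ChIP-seq) on mouse beige adipocytes, the heat-producing fat cells that appear in white fat. Stromal vascular cells of the inguinal fat pad of C57BL/6 mice were cultured and then exposed for 48 h to insulin, isobutylmethylxanthine, dexamethasone, T3 and troglitazone. Insulin, T3 and troglitazone were continued for 6 days. The libraries were Foxp4 ChIP, H3K27ac ChIP and input DNA, 1 of each, and the input was not used here. All 3 share the strain, the tissue and this treatment; the labels name no genetic change, age or untreated arm and do not say whether the libraries came from 1 culture.

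Beta-oxidation cuts fatty acids into acetyl-CoA inside mitochondria. The carnitine shuttle brings long chains in, acyl-CoA dehydrogenases make the first oxidation, and the electron transfer flavoprotein carries the electrons to the respiratory chain. A hydratase, a dehydrogenase and a thiolase complete each round. The TCA cycle then burns the acetyl-CoA, and the pyruvate dehydrogenase complex supplies more of it from glucose. Beige fat is rich in mitochondria and uses this oxidation to make heat. Foxp4 is a forkhead transcription factor. H3K27ac, acetylation of lysine 27 of histone H3, marks active promoters and enhancers.

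Both lists hold peaks only, so sequencing depth is unknown, and a gene without a peak is one where no peak was called at this depth. With 1 library of each kind there is no replicate spread, and no difference below was tested. Each peak carries the authors' score, at least 20 in both lists, with a median of 27 for Foxp4 and 40 for H3K27ac. Scores are used only within a list. In the Foxp4 list, 6 score values (21, 27, 34, 41, 49 and 57) recur and hold 73.1% of the peaks; they are called recurrent scores below. Of 10 adipocyte marker genes, 8 had an H3K27ac promoter peak, among them Pparg, Cebpa and Plin1, and Adipoq and Fabp4 had none. Of 10 beige or brown fat markers, only Ebf2 had one, and Ucp1, Prdm16, Dio2 and Tbx1 had no peak of either kind. Promoter peaks were present at 2 of 7 stromal progenitor markers, 1 of 6 macrophage markers and 0 of 5 each of endothelial, skeletal muscle and hepatocyte markers. An H3K27ac peak at any distance was assigned to 9 of the 10 adipocyte markers, all but Adipoq. The same held for 5 of the 10 beige or brown markers, namely Ppargc1a, Elovl3, Cox8b, Ebf2 and Tmem26. Such a peak was assigned to 5 of the 7 progenitor, 2 of the 6 macrophage, 3 of the 5 endothelial, 1 of the 5 hepatocyte and 0 of the 5 skeletal muscle markers, and the macrophage genes Ptprc and Adgre1 had none. The part of these cells in the results below was not tested.

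To ask how widely the enzyme promoters were acetylated, H3K27ac peaks with their centre within 1000 bp of a TSS were counted. Such a promoter peak was present at 25 of the 36 genes (69.4%, exact Clopper-Pearson 95% interval 51.9 to 83.7%, counting error only). Over all 21031 protein-coding genes the share was 26.0%, and over 51 further genes of the same pathways it was 47.1%. The count depends on the window. A centre within 500 bp was found at 16 genes (19.3% of all genes). A peak in the authors' promoter class was present at 11 (12.6%), and one over the TSS itself at 5 (11.5%). That last share, 5 of the 36, was near that of all genes. In the promoter class, the peaks of Etfdh, Hadha, Idh1 and Mdh2 were named for a neighbouring gene. An H3K27ac peak at any distance was assigned to 27 of the 36, against 37.5% of all genes, and 14 of the 36 had 2 or more, against 15.0%. Only 5 genes, Acadvl, Hadhb, Hadh, Ogdh and Fh1, had no peak assigned to them in either list, a state shared by 46.3% of all genes. In a culture of mixed cells, fewer cells with the mark and less of it per cell cannot be told apart.

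**Figure D1:**
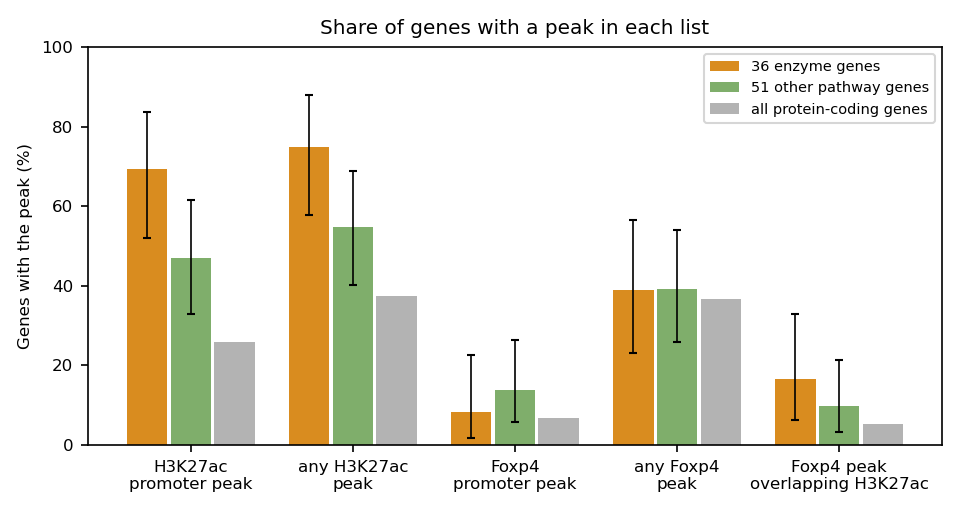
Percentage of genes (vertical axis) with each kind of peak for the 36 enzyme genes, 51 other genes of the same pathways and all 21031 protein-coding genes; error bars are exact 95% Clopper-Pearson intervals. The enzyme genes stand at 69.4% for an H3K27ac promoter peak against 26.0% of all genes, and at 8.33% for a Foxp4 promoter peak against 6.77%.

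Foxp4 showed no such spread over the enzymes. Foxp4 promoter peaks were called at 3 of the 36 genes (8.33%, interval 1.75 to 22.5%), against 6.77% of all genes. A Foxp4 peak at any distance was assigned to 14 of the 36 (38.9%), against 36.6%, and 4 had 2 or more, against 14.7%. Both shares of genes with a Foxp4 peak are near the background. Cs, the citrate synthase gene, was the single gene with promoter peaks of both kinds, a combination found at 3.70% of all genes. Of the 25 enzyme genes with an acetylated promoter, 1 had a Foxp4 promoter peak, against 14.2% of all genes with an H3K27ac promoter peak.

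Among the fatty acid oxidation enzymes, 12 of 19 had an H3K27ac promoter peak. Outside the 36 genes, the carrier gene of the carnitine shuttle, Slc25a20, had one of score 39, and the transferase gene Cpt1c had no peak. The 3 shuttle genes among the 36, Cpt1a, Cpt1b and Cpt2, had none by this measure. Cpt2, the inner membrane transferase that rebuilds acyl-CoA in the matrix, nevertheless had the widest H3K27ac peak of any of the 36 genes, 2256 bp with a score of 102 (chr4:107921323-107923578). This peak ended 11 bp short of the TSS, and its centre lay 1139 bp downstream, just outside the window. A second H3K27ac peak of Cpt2, of score 37, lay 9155 bp upstream. Cpt1a, the outer membrane transferase that limits the entry of fatty acids, had 3 H3K27ac peaks in its introns, 1949, 11374 and 30489 bp downstream, with scores of 38, 54 and 58. Cpt1b, the transferase of muscle and brown fat, had no H3K27ac peak.

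The acyl-CoA dehydrogenases differ by the length of the chain they oxidise. Acadm, for medium chains, had an H3K27ac promoter peak of score 81 whose centre lay 507 bp upstream of the TSS, and a second peak of score 56 lay 3376 bp upstream. Acadl, for long chains, had one of score 77 and 1215 bp in intron 1. Acads, for short chains, and Acadvl, for very long chains, had no H3K27ac peak. The peaks nearest the Acadvl start had their edges 2128 and 2328 bp away, with scores of 22 and 36, and were assigned to Mir324 and Dlg4.

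All 3 genes that pass electrons from these dehydrogenases to ubiquinone were acetylated at the promoter. Etfb, the beta subunit of the electron transfer flavoprotein, had a peak of score 61 and 1130 bp, centred 752 bp upstream. Etfa, the alpha subunit, had one of score 45 and 924 bp in intron 1. Etfdh, the dehydrogenase that hands the electrons on, had one of score 38. Among all H3K27ac promoter peaks the scores of Etfb, Etfa and Etfdh stood at percentiles of 65.0, 39.7 and 25.2.

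The enzymes that finish each round of the spiral had promoter peaks at 4 of 6 genes. Acat1, the thiolase of ketone bodies and short chains, had the second highest promoter score of the 36 genes, 126 over 1063 bp in a CpG island (chr9:53609601-53610663). Acaa2, the thiolase of longer chains, had the widest promoter peak, 1466 bp with a score of 68 (chr18:74779218-74780683). Echs1, the hydratase, had a score of 51, equal to the median of all H3K27ac promoter peaks. Hadh, the short-chain hydroxyacyl-CoA dehydrogenase, had no peak. Hadha and Hadhb encode both subunits of the trifunctional protein and start 273 bp apart on opposite strands. A peak of score 45 (chr5:30154548-30155140) spanned the Hadha TSS and ended 113 bp short of the Hadhb TSS. It was assigned to Hadha by nearest TSS, while the authors' promoter class names Hadhb for it. Counting every annotated start within 1000 bp of a peak centre therefore added Hadhb and gave 26 genes.

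All 3 auxiliary enzymes for unsaturated chains among the 36 carried the mark. Eci2, an enoyl-CoA isomerase, had a score of 75 in the 5′ UTR of exon 1, and Eci1, the other isomerase, and Decr1, the dienoyl-CoA reductase, had 58 each. Of related genes outside the 36, Ech1 had an H3K27ac promoter peak, and Decr2 and Eci3 had no peak of either kind.

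**Figure D2:**
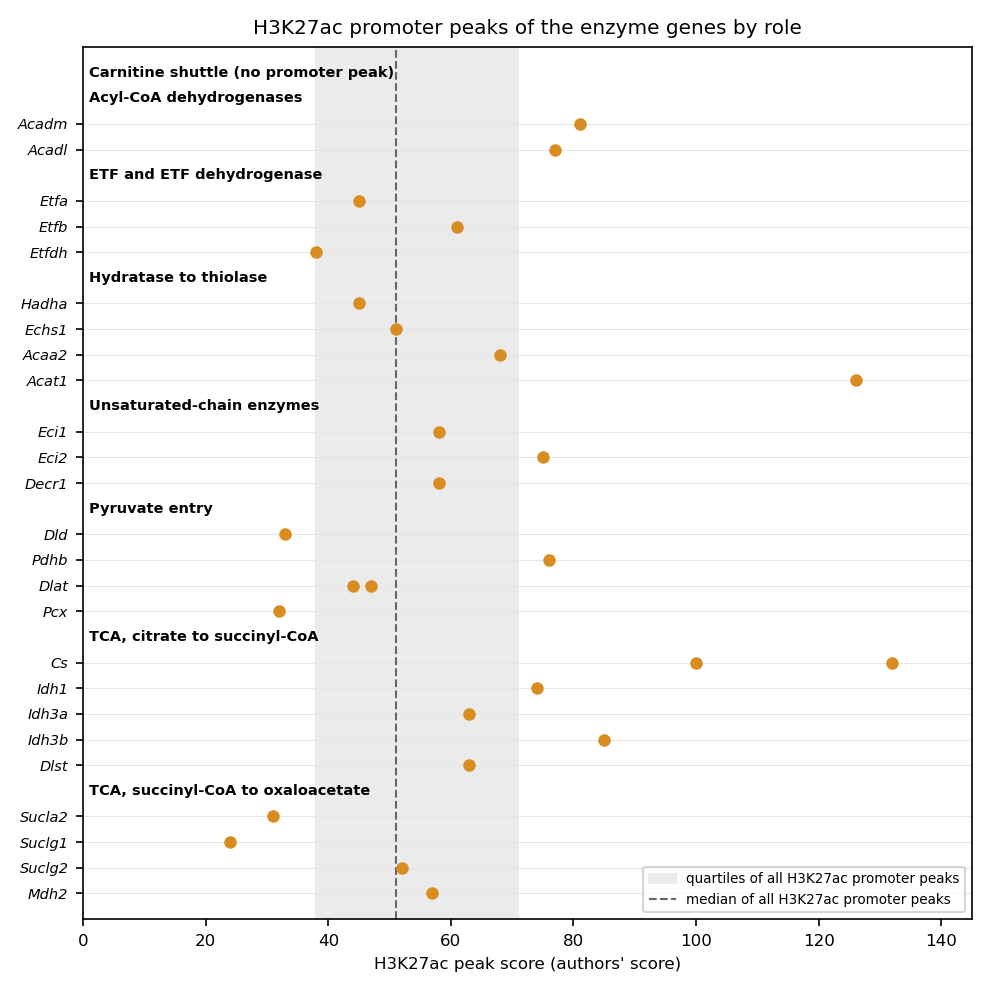
Authors' score (horizontal axis) of each H3K27ac promoter peak, 1 row per enzyme gene, grouped by role; the dashed line and shaded band are the median and quartiles of all H3K27ac promoter peaks. Cs (100 and 132) and Acat1 (126) stand highest, and Suclg1 (24) lowest.

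Of the pyruvate and TCA genes, 13 of 17 had an H3K27ac promoter peak. All 4 genes of pyruvate entry among the 36 had one. Pdhb, a subunit of the first enzyme of the pyruvate dehydrogenase complex, had a score of 76. Dlat, the acetyltransferase of that complex, had 44 and 47. Dld, the lipoamide dehydrogenase that the oxoglutarate complex also uses, had 33, and Pcx, pyruvate carboxylase, had 32. The Dlat peaks were centred 614 bp downstream and 343 bp upstream, and the latter spanned the TSS. Each of these 4 genes had at least 2 H3K27ac peaks. Pdhb had 2 more H3K27ac peaks, of score 51 at 2124 bp upstream and of score 37 inside an intron of its neighbour Pxk. Outside the 36, the genes Pdha1 and Pdhx belong to the same complex. Pdha1 had an H3K27ac promoter peak and Pdhx had none.

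In the part of the cycle from citrate to succinyl-CoA, 5 of 7 genes were acetylated at the promoter, with a median best score of 74 and a range of 63 to 132. Cs led all 36 genes with peaks of 132 and 100 on either side of its TSS. Idh3b, a subunit of the NAD-dependent isocitrate dehydrogenase, had 85, and Idh3a, its catalytic subunit, had 63 in a CpG island. Idh1, the cytosolic NADP-dependent enzyme, had 74 at a start it shares with Pikfyve, 206 bp away on the other strand, and 2 further peaks of score 61 and 28 in its introns. Dlst, the succinyltransferase of the oxoglutarate complex, had 63. Idh2, the mitochondrial NADP-dependent enzyme, and Ogdh, the first enzyme of the oxoglutarate complex, had no H3K27ac peak.

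From succinyl-CoA to oxaloacetate, 4 of 6 genes carried the mark, with a median best score of 41.5 and a range of 24 to 57. This range did not overlap that of the earlier steps, but genes without a promoter peak, present in both parts, have no score and are left out. The 4 genes included all 3 succinyl-CoA ligase genes, Suclg2 (52), Sucla2 (31) and the shared subunit Suclg1 (24, the lowest of all). Mdh2, mitochondrial malate dehydrogenase, had 57, at a start 264 bp from that of Styxl1. Fh1, fumarase, and Mdh1, cytosolic malate dehydrogenase, had none, although Mdh1 starts 347 bp from Wdpcp in the same back-to-back arrangement. The contrast between the earlier and later steps was noticed after the values were seen.

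Over the 27 promoter peaks of the 25 genes, the score had a median of 58 (quartiles 45 and 75.5), against 51 (38 and 71) over all 6415 H3K27ac promoter peaks. The median percentile was 61.1, with a 95% interval of 39.7 to 78.7 that includes the middle of the list. The median width was 600 bp, against 660 bp.

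The peaks of the enzyme genes covered the TSS less often than those of the whole list, a difference that was not tested. Of the 27 promoter peaks, 18 (66.7%) lay entirely downstream of the TSS, against 44.1% of all H3K27ac promoter peaks. Only 5 (18.5%), at Acat1, Echs1, Hadha, Dlat and Dlst, covered the TSS, against 41.3%. The other 4, at Acadm, Etfb, Pcx and Cs, lay entirely upstream (14.8%, against 14.6%). The edge nearest the TSS was close in many: 5 bp at Acaa2, 18 bp at Acadl, 43 bp at both Eci1 and Mdh2 and 49 bp at Idh3b. The median centre was 349 bp downstream, against 255 bp. Starts within 1000 bp of another gene's start on the opposite strand were found for 6 of the 31 genes with a RefSeq promoter (19.4%), against 9.51% of all. At these 6 the paired genes run away from each other. Etfdh, which starts 312 bp from 4930579G24Rik, completes that group.

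**Figure D3:**
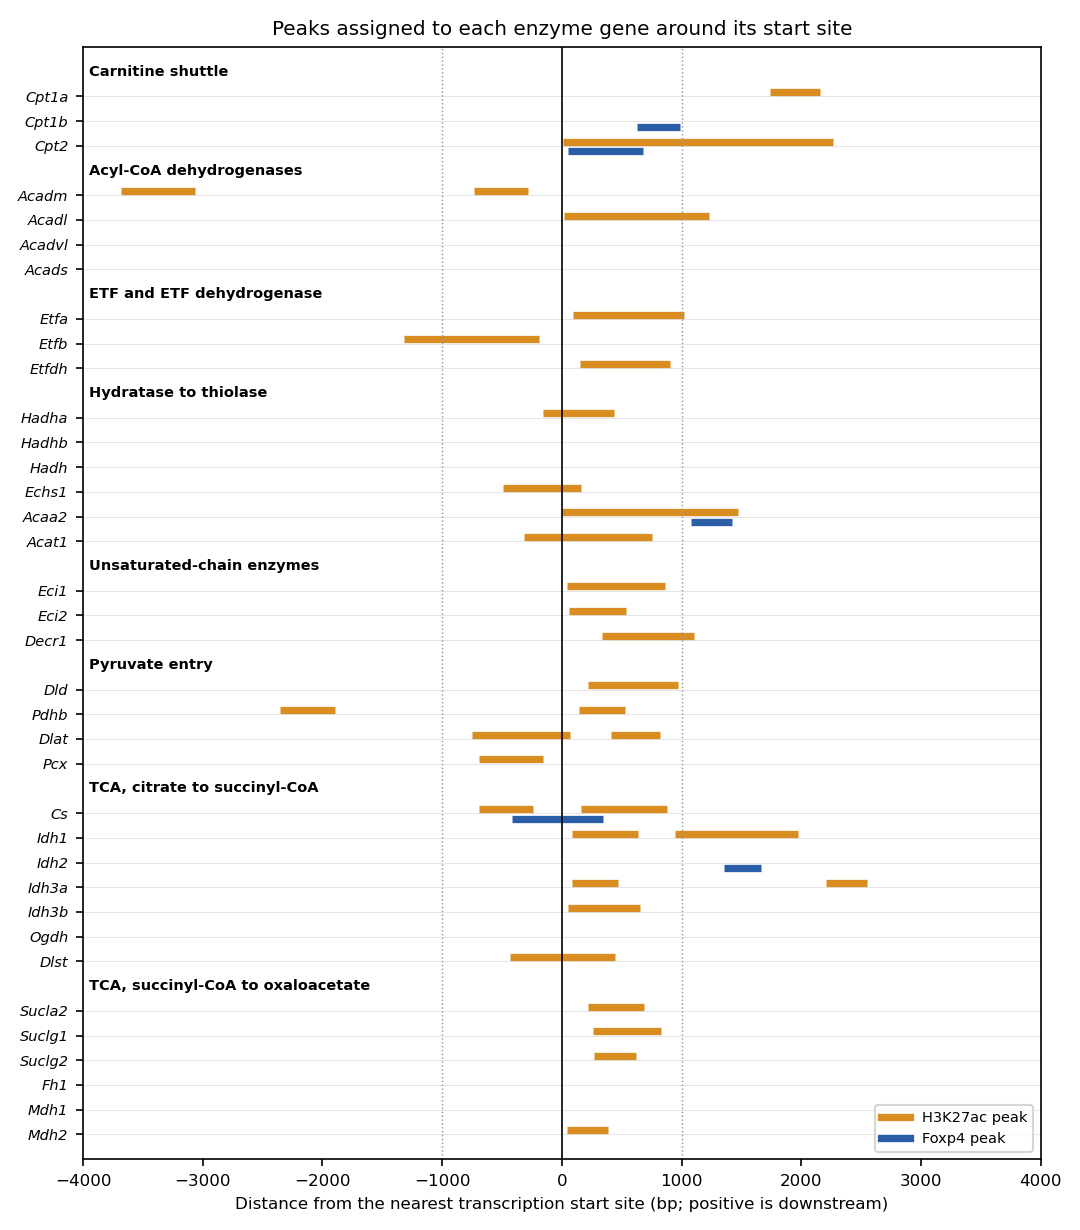
Peaks near the TSS (horizontal axis, distance in bp, positive is downstream) for each of the 36 enzyme genes, grouped by role; orange bars are H3K27ac peaks and blue bars Foxp4 peaks, drawn to scale, with dotted lines at 1000 bp. Of 27 H3K27ac promoter peaks, 18 lie to the right of the TSS without touching it, and Foxp4 bars appear within 1000 bp only at Cs, Cpt2 and Cpt1b.

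The upstream sequences of 5 genes show the promoters that these results turn on. They come from RefSeq on GRCm38.p6, the assembly of mm10, and are written 5′ to 3′ toward the TSS, with capitals marking matches on either strand to the motifs named in the next paragraph. Cs and Cpt2 have Foxp4 promoter peaks, and Hadha starts back to back with Hadhb. Dlst has the H3K27ac peak best centred on its TSS, and Acadm has one that lies upstream. The first 2 followed a rule on Foxp4 promoter peaks and the others were picked after their values were seen. The windows are chr10:128337477-128337726 (plus strand) for Cs, chr4:107923590-107923839 (minus) for Cpt2, chr5:30154981-30155230 (minus) for Hadha, chr12:85110583-85110832 (plus) for Dlst and chr3:153944644-153944893 (minus) for Acadm.
Cs: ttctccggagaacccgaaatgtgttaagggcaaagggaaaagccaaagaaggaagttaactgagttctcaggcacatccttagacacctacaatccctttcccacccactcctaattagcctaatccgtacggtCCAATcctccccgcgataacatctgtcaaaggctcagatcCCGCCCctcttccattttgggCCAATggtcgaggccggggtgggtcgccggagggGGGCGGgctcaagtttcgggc
Cpt2: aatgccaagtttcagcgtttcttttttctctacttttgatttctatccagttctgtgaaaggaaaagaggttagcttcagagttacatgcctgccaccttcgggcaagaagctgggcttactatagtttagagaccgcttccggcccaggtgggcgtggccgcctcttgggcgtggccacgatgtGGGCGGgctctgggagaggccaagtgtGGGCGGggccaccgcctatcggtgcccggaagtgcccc
Hadha: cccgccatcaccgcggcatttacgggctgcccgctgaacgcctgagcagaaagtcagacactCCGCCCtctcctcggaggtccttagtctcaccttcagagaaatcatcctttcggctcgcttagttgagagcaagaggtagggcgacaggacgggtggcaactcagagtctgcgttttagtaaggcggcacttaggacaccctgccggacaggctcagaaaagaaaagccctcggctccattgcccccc
Dlst: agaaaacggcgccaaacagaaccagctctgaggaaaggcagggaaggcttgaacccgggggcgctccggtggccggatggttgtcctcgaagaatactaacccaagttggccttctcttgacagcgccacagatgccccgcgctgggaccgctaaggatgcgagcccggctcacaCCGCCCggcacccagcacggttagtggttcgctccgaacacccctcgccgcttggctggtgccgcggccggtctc
Acadm: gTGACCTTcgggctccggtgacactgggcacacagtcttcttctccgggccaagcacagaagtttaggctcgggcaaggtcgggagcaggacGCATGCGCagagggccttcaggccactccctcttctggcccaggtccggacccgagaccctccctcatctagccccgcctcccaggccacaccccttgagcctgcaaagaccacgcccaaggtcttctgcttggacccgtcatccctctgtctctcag

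The Foxp4 peak at Cs covered all 250 bases of this window, while the H3K27ac peak upstream reached only the first 13. The H3K27ac peak at Dlst covered all 250 and that at Hadha 160. No peak of Cpt2 reached its window, and the peak of Acadm began beyond its far end. Motifs were searched on both strands from 250 bases before to 50 after the start, in 38 promoters of 31 of the 36 genes. The forkhead sequence TGTTTAC was in 0 of the 38, against 2.90% of 20488 promoters of protein-coding genes. The other forkhead form, TGTTTGC, was in 2 (Idh3b and Suclg1; 5.26%, against 4.51%). AAGGTCA, the extended site of estrogen-related receptors, was in Acadm and Ogdh (5.26%, against 4.03%). The core of nuclear respiratory factor 1, GCGCATGC, was in 5 (of Acadm, Etfa, Etfdh and Ogdh; 13.2%, against 3.64%). The YY1 core AAGATGGC was in 1, at Eci1 (2.63%, against 3.11%). The GC box GGGCGG was in 29 (76.3%, against 47.6%) and CCAAT in 23 (60.5%, against 38.4%). The median GC content of the 38 was 61.2%, against 57.0% of all promoters and 62.3% of those with an H3K27ac promoter peak. Matches of different motifs were counted separately, also where they overlap. Matches describe letters in these windows and name no bound factor, and 6 of the 38 windows belong to Ogdh.

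Of the 24 Foxp4 peaks assigned to the enzymes, 3 were promoter peaks (12.5%, against 9.48% of all Foxp4 peaks). Those meeting H3K27ac were a larger part than in the whole list, which was not tested. Of the 24 peaks, 6 overlapped an H3K27ac peak by at least 1 bp (25.0%, exact interval 9.77 to 46.7%), against 8.21% of all Foxp4 peaks. They were assigned to 6 genes, Cs, Cpt2, Cpt1a, Acaa2, Pcx and Etfa, while 5.36% of all genes had such a peak. All 6 scored between 36 and 74, above the list median of 27. Without recurrent scores, 3 of 6 peaks overlapped (Acaa2, Pcx and Etfa), against 19.2% of such peaks in the whole list, and no Foxp4 promoter peak was left. Several peaks of 1 gene are not independent, and H3K27ac peaks were themselves more frequent at these genes.

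At Cs the Foxp4 peak of score 41 (chr10:128337310-128338074) was centred 35 bp upstream of the TSS. It bridged the 397 bp gap between both H3K27ac promoter peaks, sharing 180 bp with the upstream one (score 100) and 188 bp with the downstream one (score 132). At Cpt2 the Foxp4 peak, also of score 41, lay in intron 1 with its centre 368 bp downstream (chr4:107922908-107923534), wholly inside the wide H3K27ac peak. The Foxp4 promoter peak of Cpt1b, of score 27 in intron 2, 810 bp downstream (chr15:89424872-89425233), overlapped no H3K27ac peak. These are the 3 Foxp4 promoter peaks, and each stood at a recurrent score. Cpt1a had 3 Foxp4 peaks, the strongest (score 41) in intron 3 at chr19:3353656-3354210, sharing 427 bp with an H3K27ac peak of score 58. Its other peaks, of score 34 and 27, lay in intron 1 in an LTR and a SINE repeat without H3K27ac. All 3 carnitine shuttle genes among the 36 thus had a Foxp4 peak assigned (exact interval 29.2 to 100%), against 36.6% of all genes. The interval includes that share. Within the 36 genes, the carnitine shuttle was the single role of the 8 with one at each gene, which was noticed after the values were seen. Outside the 36, the shuttle's carrier gene Slc25a20 and the transferase gene Cpt1c had no Foxp4 peak.

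The remaining overlaps lay away from the starts. At Acaa2 a Foxp4 peak of score 36 lay in intron 1, 1250 bp downstream (chr18:74780288-74780636), entirely inside the H3K27ac promoter peak. At Pcx the peak of score 48 (chr19:4521779-4522239) lay in intron 2, 11537 bp downstream of the nearest Pcx start and entirely within an H3K27ac peak of score 41. The strongest Foxp4 peak of the set, 1021 bp with a score of 74 at the 99.6th percentile of its list (chr9:55421614-55422634), was assigned to Etfa from 90119 bp away. The deposited annotation places it inside intron 8 of another gene, Tmem266. There it bridged a 331 bp gap between H3K27ac peaks of score 25 and 85, and an H3K27ac peak of score 118 followed at chr9:55424763-55425217. Of all 1391 Foxp4 peaks that overlapped H3K27ac, 19 (1.37%) met more than 1 H3K27ac peak in this way. The peaks at Etfa and Cs are 2 of them, which was noticed after the values were seen.

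**Figure D4:**
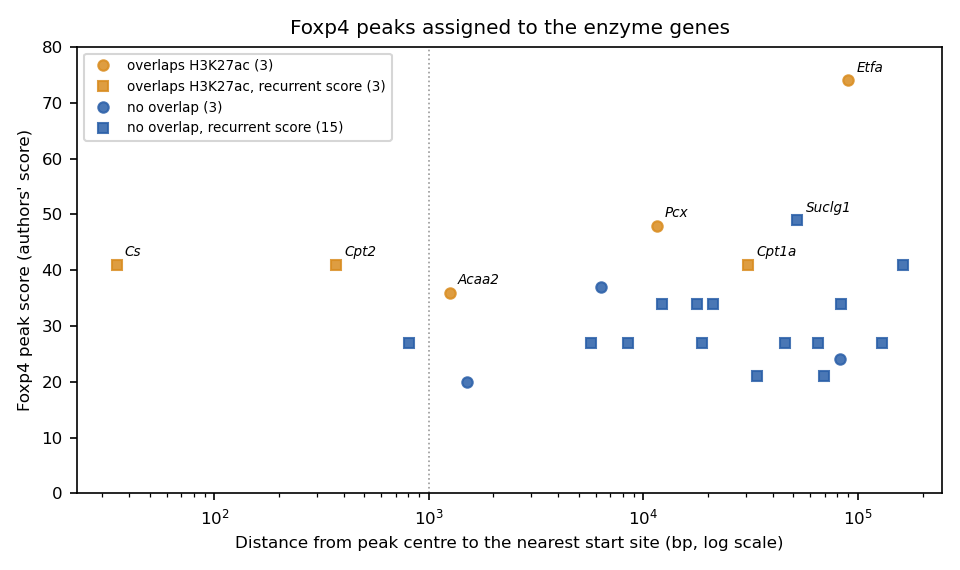
Authors' score (vertical axis) of the 24 Foxp4 peaks assigned to the enzyme genes against distance to the nearest TSS (horizontal log axis); orange marks overlap with H3K27ac, squares mark recurrent scores and the dotted line 1000 bp. The 6 overlapping peaks score 36 to 74, and 18 of the 24 stand at recurrent scores.

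The other 18 Foxp4 peaks overlapped no H3K27ac peak, and 15 of them stood at recurrent scores. Suclg2 had the most Foxp4 peaks, 5 between 5701 and 161670 bp from its starts, with scores of 27 for 4 of them and 41 for the one in intron 9. Suclg1 had one of score 49 in an LTR repeat 52245 bp downstream. Pcx had 2 more, of 21 in a DNA transposon and of 27 in exon 6. Idh2, which had no H3K27ac peak, had a Foxp4 peak of score 20, the lowest score in the list, 1506 bp downstream in intron 1. Acads had one of score 37, located in intron 4 of its neighbour Unc119b, and Mdh1, Dld and Eci2 had single peaks of 34, 34 and 21. The remaining 2 peaks assigned to Etfa, of score 34 and 24, again lay in intron 8 of Tmem266. Over the 24 peaks, 17 lay in introns (70.8%, against 43.5% of all Foxp4 peaks) and 5 in intergenic sequence (20.8%, against 45.2%). Repeats held 33.3% and recurrent scores 75.0%, against 32.0% and 73.1% of the whole list.

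Of 51 further genes of the same pathways, 24 had an H3K27ac promoter peak (47.1%, interval 32.9 to 61.5%), against 26.0% of all genes. The interval overlaps that of the 36, and the difference from the 36 was not tested. The 24 were 13 of 23 genes of pyruvate and TCA metabolism, and 11 of 28 of fatty acid metabolism. They included the E1 alpha subunit gene Pdha1, and Sdha, Sdhb and Sdhd of succinate dehydrogenase, all chosen after their values were seen. Foxp4 promoter peaks were called at 7 of the 51 (13.7%, interval 5.70 to 26.3%), against 6.77% of all genes. At 5 genes (9.80%, interval 3.26 to 21.4%) Foxp4 and H3K27ac peaks overlapped, against 5.36% of all genes. Neither difference was tested. Aco1, the cytosolic aconitase, had a Foxp4 promoter peak of score 42, overlapping H3K27ac of score 33. Mpc1, a subunit of the mitochondrial pyruvate carrier, had 2 Foxp4 promoter peaks of 34 and 22 inside 1 H3K27ac peak of 2434 bp. Acadsb, the short branched-chain dehydrogenase, had one of 27 within H3K27ac of score 69. Acaa1a, a peroxisomal thiolase, had one of 41 that overlapped an H3K27ac peak of score 94 assigned to another gene. Pdk4, the kinase that shuts off pyruvate dehydrogenase, had a Foxp4 peak of score 49 at 13308 bp upstream, overlapping H3K27ac of score 91. The Foxp4 promoter peaks of the kinases Pdk1 (40) and Pdk2 (28) and of Bdh1 (27), an enzyme of ketone bodies, met no H3K27ac peak.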

How the data were processed

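The authors deposited 1 annotated peak list per ChIP library. Per the file headers, each is a narrowPeak list annotated with HOMER annotatePeaks.pl on mm10, and gives the nearest TSS, its signed distance in bp and a whole-number score per peak. The submitters' processing notes name Bowtie2, Picard, SAMtools, MACS2 and deepTools 3.3.0. The deposited score is the authors' own, with its scale, the threshold of the call and the use of the input not given in the sources used here. The labels name an antibody for Foxp4 only.

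A single Foxp4 peak outside chromosomes 1 to 19, X and Y was dropped. Genes were matched through Entrez identifiers to 21031 protein-coding genes of RefSeq on GRCm38.p6 that have a curated transcript. Promoter peaks, overlaps and counts followed the definitions given with the results, with exact Clopper-Pearson 95% intervals. A Foxp4 score was called recurrent where 100 or more peaks had it, over 3 times the number at the score 1 below or 1 above. The RefSeq promoter table held 31 of the 36 genes. Overlap counting was tested on simulated data. The 36 genes, the lists and the rules were chosen with earlier results of these data known, so the counts are descriptions and no gene-set test was run. The rule for naming genes covered those with a Foxp4 promoter or H3K27ac-overlapping Foxp4 peak, the 5 highest-scoring and 5 widest and 3 lowest-scoring H3K27ac promoter peaks, genes without one, and genes with more than 2 peaks in a list. Alternatives to each count are given at the close. The tables were read with pandas 2.3.3, intervals came from scipy 1.17.1, and plots from matplotlib 3.10.9.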

Additional observations from a re-analysis of the deposited data

How the results depend on the processing

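Of 40 alternative settings over 8 results, 29 stayed within 1.5 times the reported count or within the 95% interval of the reported share or median, and 11 did not. The number of enzyme genes with an H3K27ac promoter peak was 25; it was 16 with a window of 500 bp (19.3% of all genes), 11 by the authors' promoter class (12.6%), and 5 where the peak had to cover the TSS (11.5%). It ranged from 20 to 27 under the others. The 3 genes with a Foxp4 promoter peak became 5 with a window of 3000 bp (10.4% of all genes), 1 by the promoter class (4.47%), 1 where the TSS had to be covered (2.54%), and 0 without recurrent scores (3.87%). The 14 genes with any Foxp4 peak became 8 within 10000 bp of a TSS (18% of all genes) and 5 without recurrent scores (14.5%). The 6 genes with a Foxp4 peak overlapping H3K27ac became 3 without recurrent scores (3.49% of all genes), and the share of overlapping peaks rose from 25.0% to 50.0% (3 of 6 peaks), against 19.2% of all such peaks. Among the higher-scoring 50% of both lists that share was 46.2%, against 8.36%. Leaving out peaks inside another gene, such as those in Tmem266, gave 5 genes (5.07%). Settings on covering the TSS, the nearest edge of a peak and peaks inside another gene were chosen after seeing the data. Depth is unknown, and with 1 library per target no replicate could be left out.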
